A study of Homo sapiens with 8 samples.

Results

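The genes that encode the NF-kB subunits and the inhibitors that NF-kB itself induces were examined in the uterine leiomyosarcoma line SK-UT-1 after treatment with TP-472. The members were taken by name: 5 Rel-family subunits (NFKB1, NFKB2, RELA, RELB and REL) and 5 feedback genes (NFKBIA, NFKBIE, NFKBIZ, TNFAIP3 and BIRC3), 10 of the 60282 genes listed in the count table. Leiomyosarcoma is a malignant tumor of smooth muscle, and SK-UT-1 is a long-established human line of it. The cells received 5 µM TP-472, an inhibitor of the bromodomain proteins BRD9 and BRD7, or the DMSO vehicle for 48 h, with 4 RNA-seq libraries per group. All libraries came from this single cell line, and neither group carried any other agent or allele in the labels. The study's methods describe its replicates in general as biological, but neither they nor the labels say that these libraries came from separate cultures, so the p-values measure the spread between these libraries, which may be technical. RNA was taken from whole cell pellets, in which fewer cells of a type and less RNA per cell cannot be told apart.

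NF-kB is a family of transcription factors that act as dimers of Rel-domain proteins. In resting cells the dimers are held in the cytoplasm by inhibitors of the IkB family. Receptors for TNF, IL-1 and microbial products activate a kinase complex that marks the inhibitor for destruction, after which the dimer enters the nucleus and transcribes its targets, among them the genes of its own inhibitors. RELA pairs with the product of NFKB1 in this canonical route, whereas RELB and the product of NFKB2 serve a slower, non-canonical route. In smooth muscle and in tumors derived from it, the pathway is known mainly for the induction of cytokines, chemokines and survival genes.

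The count tables summed to between 32574716 and 36634184 counts in the vehicle libraries and to between 36246466 and 38545695 in the TP-472 libraries. Levels are given as TMM-scaled CPM, that is, counts brought to the same total after a correction for library composition. Genes entered the test where 4 or more libraries exceeded 1 CPM, which left 14073 genes, all 10 members among them. A gene was called when it was changed more than 1.5-fold and edgeR's quasi-likelihood test, after Benjamini-Hochberg adjustment, gave p under 0.05.

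Vehicle replicate 3 stood apart from the other 7 libraries. Its median Spearman correlation with its own group was 0.914, against 0.988 to 0.989 for the other vehicle libraries and 0.993 to 0.997 for the TP-472 libraries. The difference followed the base composition of the genes. The tested genes were split by the GC content of their longest transcript into 5 groups of 2794. The median log2 ratio of vehicle replicate 3 to the other vehicle libraries went from -0.73 in the group with the least GC to 0.99 in the group with the most. NFKB2, RELB and NFKBIE, with 62.4%, 65.4% and 61.0% GC, had log2 ratios of 1.18, 1.05 and 0.68 in that library, whereas BIRC3, with 34.8% GC, had -1.01. TNFAIP3, at 49.5% GC, was also high there, with a log2 ratio of 0.87. The changes of the members and of the called pathway genes named are therefore given with all 8 libraries and without vehicle replicate 3, and the part of GC content in any single change was not tested.

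**Figure D1:**
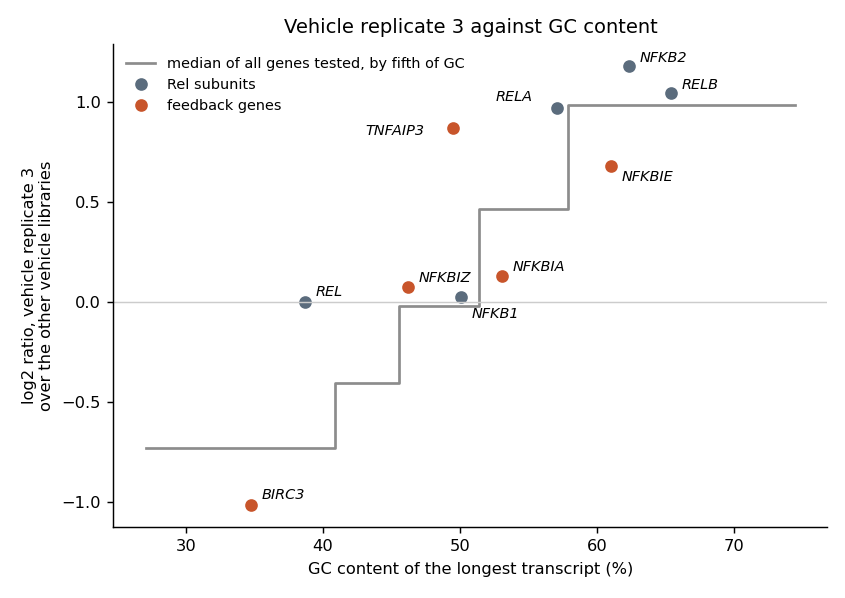
Log2 ratio of vehicle replicate 3 to the other vehicle libraries (vertical axis) against the GC content of the longest transcript in percent (horizontal axis), with 1 point per member and, as a stepped line, the median of all tested genes in each of 5 groups by GC. NFKB2 and RELB lie above 1 on the vertical axis, BIRC3 lies at -1.01, and REL, NFKB1, NFKBIZ and NFKBIA lie close to 0.

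The smooth muscle label was compared with its markers. Of 9 smooth muscle markers 7 passed the filter, led by CALD1, a regulator of actin-myosin contraction, and the list summed to 439, 479, 524 and 481 CPM in the vehicle libraries and to 380, 378, 373 and 371 CPM in the TP-472 libraries. CALD1 was not called, and TAGLN was called lower, with a log2 fold change of -0.67. ACTA2, the smooth muscle actin, had a log2 fold change of -0.55 (edgeR adjusted p = 0.00426), under the fold limit, and was called lower without vehicle replicate 3 (-0.60, adjusted p = 1.33e-04). DES and LMOD1 passed the filter through the vehicle group alone, at means of 3.25 and 2.53 CPM there and of 0.629 and 0.702 CPM in the TP-472 group, and no test of them is given. The part of these markers in the results on NF-kB genes was not tested. The defining genes MYH11, the smooth muscle myosin heavy chain, and MYOCD, the master regulator of the lineage, were close to 0, at a mean of 0.00703 and 0.0418 CPM in the vehicle group and of 0.236 and 0.0874 CPM in the TP-472 group. MYH11 had 0, 0, 0 and 1 counts in the vehicle libraries and 10, 8, 7 and 10 counts in the TP-472 libraries. Immune cells are a common source of NF-kB transcripts, and their markers were also read in this single cultured line. CD3E had no count in any library, and PTPRC was at 0 CPM in the vehicle group and at a mean of 0.00705 CPM in the TP-472 group. CD68 was the only one of 8 leukocyte markers above the filter. It went from a mean of 7.53 to 10.4 CPM (log2 fold change 0.47, edgeR adjusted p = 0.0307), under the fold limit. CD14 went from 0.584 to 0.889 CPM and ITGAM from 0.688 to 1.24 CPM. In CD68, CD14 and ITGAM each TP-472 library lay above each vehicle library, a pattern seen in 23.8% of all tested genes. CD14 and ITGAM were below the filter. In PTPRC, CD79A, LYZ and CSF1R, also below the filter, the groups overlapped. The labels name no cells other than this line. What these leukocyte markers reflect, and their part in the results on NF-kB genes, was not tested. The leukocyte list summed to 7.84, 9.08, 9.61 and 9.27 CPM in the vehicle libraries and to 14.9, 13.2, 11.7 and 11.6 CPM in the TP-472 libraries. None of the 6 endothelial markers, led by CLDN5, passed the filter. Their sum was 0.249, 0.287, 0.637 and 0.253 CPM in the vehicle libraries and 0.466, 0.874, 0.721 and 0.978 CPM in the TP-472 libraries. Of 7 epithelial markers 3 passed, led by KRT18. EPCAM, below the filter, was at 0.731 CPM in the vehicle group and at 0.245 CPM in the TP-472 group, without overlap. The epithelial list summed to 18.4, 18.4, 24.1 and 19.4 CPM in the vehicle libraries and to 25.2, 28.0, 25.7 and 21.2 CPM in the TP-472 libraries, with KRT18 called higher and KRT19 called lower.

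Of the 5 feedback genes 3, NFKBIE, TNFAIP3 and BIRC3, were called higher in TP-472-treated cells compared to the control, and none of the 5 subunits was called in either direction. With the GC trend of each library removed RELB and NFKBIA were called higher too, which made 5 members, where 13.3% of all genes in that fit were called higher. Without that correction, 12.0% of all genes tested were called higher and 14.9% were called lower. The median log2 fold change was 0.69 over the feedback genes and 0.01 over the subunits, against -0.03 over all genes tested. By the adjusted p-value alone 4 members were higher, the fourth being NFKBIA, where 17.2% of all tested genes were higher. In 6 of the 10 members, NFKB1 and the 5 feedback genes, each TP-472 library lay above each vehicle library, a pattern seen in 23.8% of all tested genes. Without vehicle replicate 3, the same 3 members were called higher (12.4% of 14217 genes tested) and none lower (13.5%). By the adjusted p-value alone 8 members were then higher (28.6%), all but RELA and REL, and in the same 8 the groups did not overlap (30.0%). The median log2 fold change was then 0.89 over the feedback genes and 0.24 over the subunits. The difference between feedback genes and subunits was not tested, since the members were chosen with earlier results known.

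**Figure D2:**
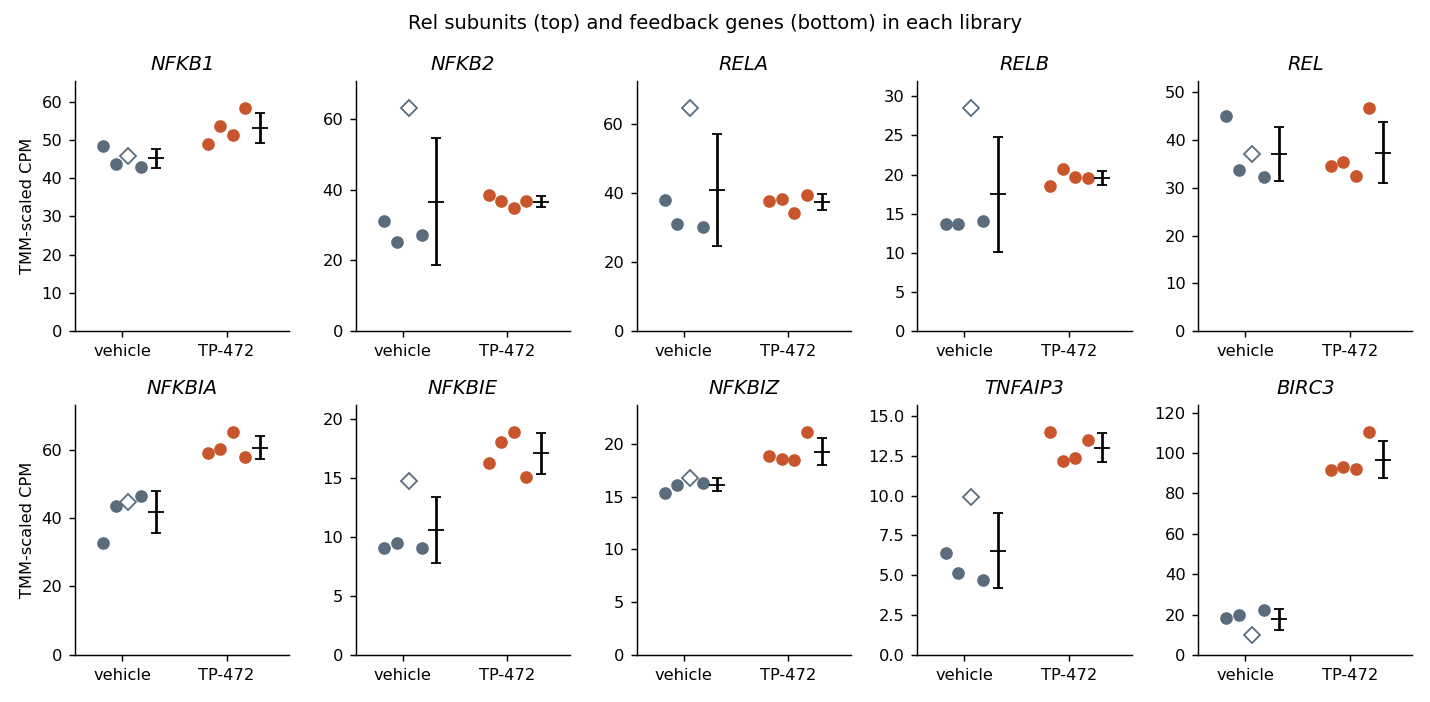
TMM-scaled CPM (vertical axes, each from 0) of the 5 subunits in the top row and the 5 feedback genes in the bottom row, with 1 point per library, vehicle replicate 3 as an open diamond, and the mean and SD of the 4 libraries as a bar beside each group. BIRC3 goes from 17.6 to 96.7 CPM, while in NFKB2, RELA and RELB the open diamond lies above every other library.

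BIRC3, TNFAIP3 and NFKBIA are known to be induced by NF-kB, and the sequences before their start sites are shown because they are the feedback genes with a RefSeq promoter whose change passed the adjusted p-value. Promoters of 300 bases, from 250 bases before to 50 after each start site, were taken from RefSeq on GRCh38.p14 and searched on both strands, overlaps included, for the consensus of the NF-kB binding site (kappa B). Of the 10 members 8 had an entry, with 13 promoters in all, and 7 of the 8 genes had a match in at least 1 of them. Counted by promoter, 9 of the 13 had a match, and the share among all 35116 promoters of this length was 5.91%. The 250 bases before the start site are given 5′ to 3′ on the strand of the gene, with matches to the consensus in capitals. They lie at chr11:102317234-102317483 on the plus strand for BIRC3, chr14:35404750-35404999 on the minus strand for NFKBIA and chr6:137867009-137867258 on the plus strand for TNFAIP3.
BIRC3: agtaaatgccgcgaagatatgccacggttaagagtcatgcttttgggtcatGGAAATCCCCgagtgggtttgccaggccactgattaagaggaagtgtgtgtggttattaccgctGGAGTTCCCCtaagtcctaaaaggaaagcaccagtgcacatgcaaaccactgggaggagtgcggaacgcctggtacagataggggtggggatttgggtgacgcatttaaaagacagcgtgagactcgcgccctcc
NFKBIA: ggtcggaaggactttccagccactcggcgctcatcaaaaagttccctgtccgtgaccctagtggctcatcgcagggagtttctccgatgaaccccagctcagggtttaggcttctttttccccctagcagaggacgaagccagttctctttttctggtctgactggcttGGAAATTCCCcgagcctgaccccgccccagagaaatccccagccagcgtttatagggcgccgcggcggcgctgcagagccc
TNFAIP3: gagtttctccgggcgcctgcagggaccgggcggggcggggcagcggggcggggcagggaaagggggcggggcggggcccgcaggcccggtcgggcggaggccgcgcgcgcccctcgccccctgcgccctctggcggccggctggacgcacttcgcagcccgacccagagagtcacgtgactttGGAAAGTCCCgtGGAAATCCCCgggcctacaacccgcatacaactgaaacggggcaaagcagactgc
Counted back from the start site, the matches begin at positions -199 and -135 in BIRC3, at -81 in NFKBIA and at -67 and -55 in TNFAIP3, and all 5 are on the strand opposite to the one printed. NFKB1, NFKB2, REL and NFKBIZ also had a match, and the windows of RELA had none. RELB and NFKBIE had no entry. A match to these letters is a description of the sequence and not a sign of binding in these cells.

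Gene positions are on GRCh38 from the GENCODE annotation. Among the subunits, NFKB1 (ENSG00000109320.13, chr4:102501329-102617302), which encodes p105 and the p50 made from it, had 48.3, 43.6, 45.8 and 42.8 CPM in the vehicle libraries and 48.9, 53.6, 51.4 and 58.4 CPM in the TP-472 libraries. The lowest TP-472 library lay just above the highest vehicle library, so the groups did not overlap. The mean was 45.1 ± 2.44 CPM in the vehicle group and 53.1 ± 4.01 CPM in the TP-472 group (SD, n = 4), with a log2 fold change of 0.23 (SE 0.10) that did not pass edgeR's quasi-likelihood test (adjusted p = 0.0906). Without vehicle replicate 3 the log2 fold change was 0.24 and passed the adjusted p-value (0.0234, edgeR), though not the fold limit.

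NFKB2 (ENSG00000077150.20, chr10:102394110-102402529) encodes p100, which acts as an inhibitor until it is cut to the p52 subunit. It had 31.0, 25.3, 63.1 and 27.0 CPM in the vehicle libraries and 38.4, 36.7, 34.7 and 36.6 CPM in the TP-472 libraries. Vehicle replicate 3 was the highest of all 8 libraries, and the other 3 vehicle libraries were the lowest. Over all libraries the means were 36.6 ± 17.8 and 36.6 ± 1.52 CPM (SD, n = 4), with a log2 fold change of 0.00 and a 95% interval from -0.62 to 0.62 (edgeR adjusted p = 0.999). Without that library the log2 fold change was 0.40, with an interval from 0.21 to 0.58, and the adjusted p-value passed (0.00247, edgeR), under the fold limit. With the GC trend removed it was 0.48 (edgeR adjusted p = 0.00127), also under the fold limit.

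RELB (ENSG00000104856.14, chr19:45001430-45038198), the partner of p52 in the non-canonical route, had the same arrangement. Its levels were 13.6, 13.7, 28.5 and 14.1 CPM in the vehicle libraries and 18.5, 20.7, 19.7 and 19.5 CPM in the TP-472 libraries. Apart from vehicle replicate 3, every vehicle library was below every TP-472 library. The log2 fold change was 0.17 (SE 0.24, edgeR adjusted p = 0.611) with all libraries and 0.50 (SE 0.07, edgeR adjusted p = 2.95e-04) without vehicle replicate 3. The fold change of 1.42 in the latter was under the limit of 1.5, whereas with the GC trend of each library removed the log2 fold change was 0.69 and RELB was called higher (edgeR adjusted p = 1.71e-04).

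RELA (ENSG00000173039.19, chr11:65653596-65663094, minus strand), which encodes the p65 subunit with the main transactivation domain, had 37.9, 31.1, 64.7 and 30.1 CPM in the vehicle libraries and 37.8, 38.2, 34.2 and 39.6 CPM in the TP-472 libraries. The groups overlapped with and without vehicle replicate 3, which was again the highest library. The log2 fold change was -0.13, with a 95% interval from -0.66 to 0.40 (edgeR adjusted p = 0.681), and turned to 0.18 without vehicle replicate 3 (adjusted p = 0.127). REL (ENSG00000162924.15, chr2:60881521-60931610), which encodes the c-Rel subunit best known from lymphocytes, had 44.9, 33.7, 37.0 and 32.3 CPM in the vehicle libraries and 34.6, 35.4, 32.5 and 46.7 CPM in the TP-472 libraries. One library of each group was high and the rest overlapped closely. Its log2 fold change was 0.01, with an interval from -0.34 to 0.36 (edgeR adjusted p = 0.955), and it was as small without vehicle replicate 3 (0.01, adjusted p = 0.958).

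BIRC3 (ENSG00000023445.16, chr11:102317450-102339403) encodes cIAP2, a ubiquitin ligase at the TNF receptor that protects cells from death and restrains the non-canonical kinase. It had 18.3, 19.9, 9.96 and 22.1 CPM in the vehicle libraries and 91.3, 93.0, 92.0 and 111 CPM in the TP-472 libraries. Even the lowest TP-472 library was far above the highest vehicle library. BIRC3 rose from 17.6 ± 5.32 to 96.7 ± 9.28 CPM (SD, n = 4), a log2 fold change of 2.46 (SE 0.23) or 5.50-fold (edgeR adjusted p = 1.88e-04). By fold change it was number 67 of the 14073 genes tested, counted from the largest rise. Since vehicle replicate 3 was the lowest library, the fold change was smaller without it, at 4.80-fold (edgeR adjusted p = 4.30e-07).

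TNFAIP3 (ENSG00000118503.15, chr6:137867188-137883312) encodes A20, an enzyme that edits ubiquitin chains and ends the signal from the TNF receptor. Its levels were 6.40, 5.14, 9.93 and 4.69 CPM in the vehicle libraries and 14.0, 12.2, 12.3 and 13.5 CPM in the TP-472 libraries. The groups were separate, with vehicle replicate 3 the nearest to the treated libraries. TNFAIP3 rose from 6.54 ± 2.37 to 13.0 ± 0.897 CPM (SD, n = 4), with a log2 fold change of 0.99 (SE 0.23) or 1.99-fold (edgeR adjusted p = 0.0109). Without vehicle replicate 3 the rise was 2.40-fold (edgeR adjusted p = 3.07e-05).

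NFKBIA (ENSG00000100906.11, chr14:35401511-35404749, minus strand), which encodes the classical inhibitor IkB-alpha, had 32.8, 43.4, 44.8 and 46.4 CPM in the vehicle libraries and 58.9, 60.1, 65.3 and 57.7 CPM in the TP-472 libraries. The groups did not overlap, and vehicle replicate 3 lay among the other vehicle libraries. The means were 41.9 ± 6.14 and 60.5 ± 3.33 CPM (SD, n = 4). The log2 fold change of 0.53 (SE 0.13) passed the adjusted p-value (0.0120, edgeR) but at 1.44-fold fell short of the fold limit, as it did without vehicle replicate 3 (1.48-fold, adjusted p = 0.00197). With the GC trend removed it was 0.61 and NFKBIA was called higher (edgeR adjusted p = 0.00287).

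NFKBIE (ENSG00000146232.17, chr6:44258166-44265788, minus strand), which encodes IkB-epsilon, an inhibitor that is made later than IkB-alpha in an NF-kB response, had 9.03, 9.48, 14.7 and 9.08 CPM in the vehicle libraries and 16.3, 18.1, 19.0 and 15.1 CPM in the TP-472 libraries. The groups did not overlap, although vehicle replicate 3 came close to the lowest treated library. NFKBIE rose from 10.6 ± 2.78 to 17.1 ± 1.75 CPM (SD, n = 4), with a log2 fold change of 0.69 (SE 0.18) or 1.62-fold (edgeR adjusted p = 0.0190), and the rise was 1.86-fold without vehicle replicate 3 (adjusted p = 6.33e-05). The call was lost when TP-472 replicate 2, TP-472 replicate 3 or vehicle replicate 1 was left out (edgeR adjusted p = 0.0543, 0.0584 and 0.0547).

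NFKBIZ (ENSG00000144802.11, chr3:101827991-101861022) encodes IkB-zeta, a nuclear member of the family that can also assist transcription. It had 15.4, 16.2, 16.8 and 16.3 CPM in the vehicle libraries and 18.9, 18.6, 18.5 and 21.2 CPM in the TP-472 libraries. The groups were separate, and TP-472 replicate 4 lay above the other treated libraries, which were close together. The log2 fold change of 0.26 (SE 0.10) did not pass edgeR's quasi-likelihood test (adjusted p = 0.0811), and without vehicle replicate 3 it was 0.27 and passed the adjusted p-value (0.0135) at a fold change under the limit.

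**Figure D3:**
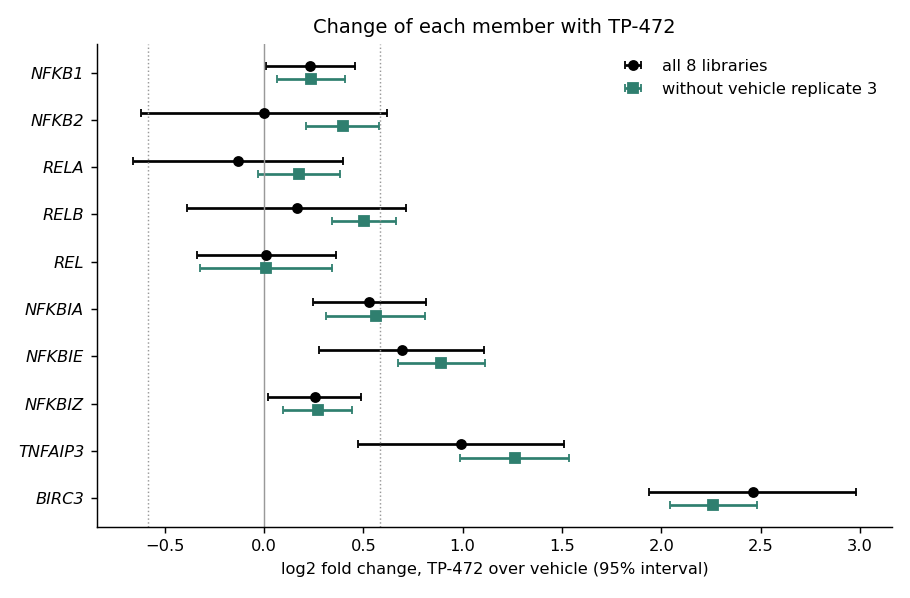
Log2 fold change of TP-472 over vehicle with its 95% interval (horizontal axis) for each member, from all 8 libraries (circles) and without vehicle replicate 3 (squares). Dotted lines mark a fold change of 1.5 in either direction. The interval of NFKB2 narrows from -0.62 to 0.62 with all libraries to 0.21 to 0.58 without that library, and BIRC3 lies beyond the dotted line in both.

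Levels were compared between genes as CPM per kilobase of merged exons. NFKBIA was the most abundant member in both groups, at 17.6 ± 2.59 CPM per kilobase in the vehicle group and 25.5 ± 1.4 in the TP-472 group (SD, n = 4). TNFAIP3 had the lowest mean, at 1.30 ± 0.469 and 2.58 ± 0.178. With all 4 libraries it did not differ beyond the spread from BIRC3 in the vehicle group or from REL (2.83 ± 0.485) in the TP-472 group. In vehicle replicate 3 TNFAIP3 was high and BIRC3 low. Without that library the vehicle group had 5.41 ± 0.885 CPM of TNFAIP3 over 5.05 kilobases and 20.1 ± 1.91 CPM of BIRC3 over 7.52 kilobases (SD, n = 3), which lie apart. BIRC3 went from 2.34 ± 0.707 CPM per kilobase in the vehicle group to 12.9 ± 1.23 in the TP-472 group, where only NFKBIA was higher. In the vehicle group BIRC3 also did not differ beyond the spread from NFKBIZ (2.74 ± 0.0972) and REL (2.81 ± 0.43). In the vehicle group NFKB2 (8.16 ± 3.97), RELA (7.50 ± 2.97), NFKB1 (7.21 ± 0.39) and RELB (5.76 ± 2.43) followed NFKBIA with overlapping spreads, and NFKBIE was at 4.10 ± 1.08. Vehicle replicate 3 was the highest library in NFKB2, RELA and RELB, and levels per kilobase were not computed without it. In the TP-472 group NFKB1 (8.48 ± 0.64) and NFKB2 (8.16 ± 0.34) did not differ beyond their spread, nor did RELA (6.85 ± 0.423), NFKBIE (6.63 ± 0.679) and RELB (6.46 ± 0.291), while NFKBIZ (3.27 ± 0.216) and REL were low. With the longest transcript in place of merged exons NFKBIA and TNFAIP3 again had the highest and the lowest mean and BIRC3 again followed NFKBIA in the TP-472 group (38.8, 2.75 and 18.6 CPM per kilobase), but the order in between changed. For the antisense or overlapping genes found by name in the table, RNU4-51P within REL had at most 1 count in a library and AL357060.1 opposite TNFAIP3 had 0.

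Ratios of estimated counts within a library do not depend on scaling, and 8 were compared with a two-sided exact permutation test over the 70 assignments of the libraries, which cannot give a p-value under 0.0286. The ratio of BIRC3 to BIRC2, its neighbor and paralog, was 0.234, 0.218, 0.249 and 0.247 in the vehicle libraries and 0.487, 0.498, 0.482 and 0.532 in the TP-472 libraries. The groups were well separated, and vehicle replicate 3 lay with its group. The ratio was 2.11-fold higher with TP-472 (exact permutation p = 0.0286, adjusted over the 8 ratios p = 0.114). Reads that fit both paralogs are shared out by the authors' counting, and the part of this in the ratio was not tested. The ratio of RELB to RELA, 0.360, 0.440, 0.441 and 0.468 in the vehicle libraries and 0.491, 0.542, 0.576 and 0.493 in the TP-472 libraries, was 1.23-fold higher without overlap (exact permutation p = 0.0286, adjusted p = 0.114).

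The balance of inhibitor to subunit differed less clearly. The ratio of NFKBIA to RELA was 0.866, 1.39, 0.692 and 1.54 in the vehicle libraries and 1.56, 1.57, 1.91 and 1.46 in the TP-472 libraries. Vehicle replicate 4 lay within the range of the treated libraries. The ratio was 1.52-fold higher (exact permutation p = 0.0571, adjusted p = 0.114), or 1.31-fold without vehicle replicate 3. The other ratios, NFKBIZ to NFKBIA, TNFAIP3 to NFKBIA, NFKBIE to NFKBIA, NFKB2 to NFKB1 and REL to RELA, differed by -0.29, 0.51, 0.18, -0.13 and 0.07 on the log2 scale, with exact permutation p-values from 0.0571 to 0.943. Without vehicle replicate 3 these differences were -0.31, 0.70, 0.31, 0.16 and -0.17, so those of NFKB2 to NFKB1 and of REL to RELA changed sign. None of the 8 ratios passed after adjustment.

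**Figure D4:**
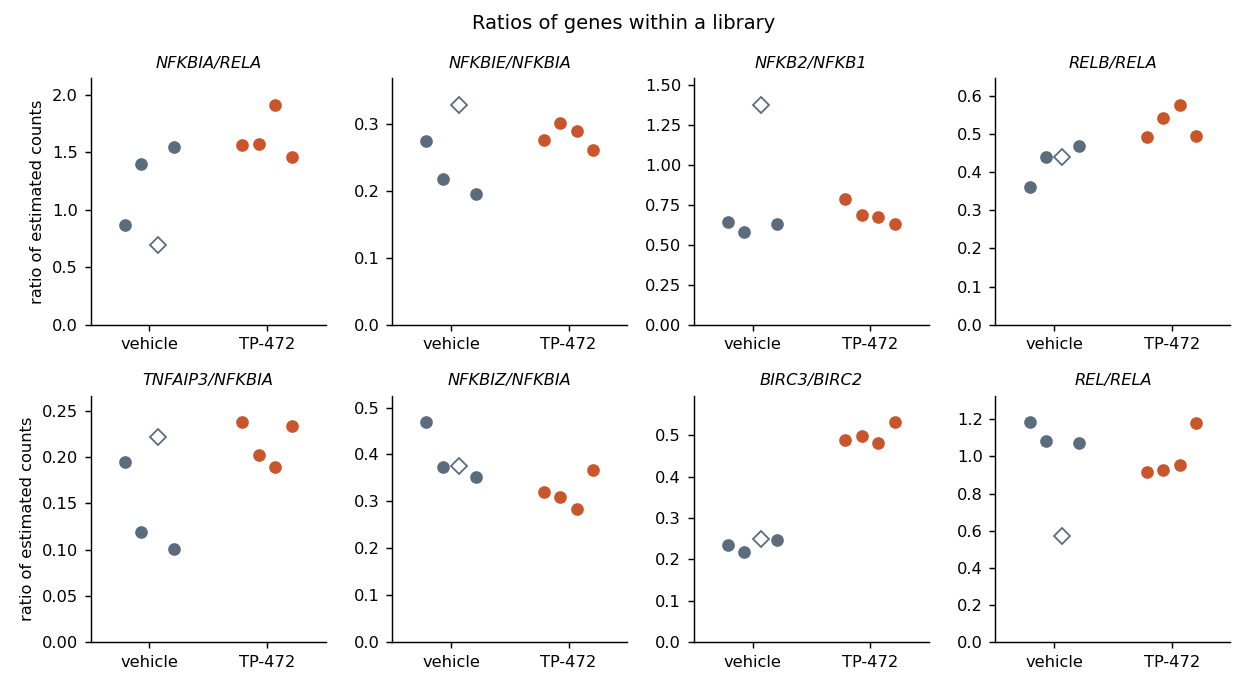
Ratio of estimated counts of a pair of genes within each library (vertical axes, each from 0) in the vehicle and TP-472 groups, with vehicle replicate 3 as an open diamond. In BIRC3 to BIRC2 the treated libraries lie between 0.482 and 0.532 and the vehicle libraries between 0.218 and 0.249, and in NFKB2 to NFKB1 the open diamond lies at 1.38, above every other library.

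Upstream of the members, a list of 32 receptors, adaptors and kinases that carry signals to NF-kB had 30 tested genes, of which 3 were called higher and 6 lower, with a median log2 fold change of -0.20, or -0.04 without vehicle replicate 3. These are 10.0% and 20.0% of the tested genes of the list, against 12.0% and 14.9% of all genes tested. The 6 include LTBR, which passed the filter through the vehicle group alone. TNFRSF1A, the main receptor for TNF, had 80.7, 75.8, 116 and 74.6 CPM in the vehicle libraries and 44.4, 43.4, 45.2 and 42.6 CPM in the TP-472 libraries. Every treated library was well below every vehicle library. TNFRSF1A fell by 0.98 on the log2 scale (SE 0.15, edgeR adjusted p = 0.00177), and by 0.81 without vehicle replicate 3 (adjusted p = 4.89e-06). TLR3, the receptor for double-stranded RNA, had 20.3, 19.3, 11.8 and 20.0 CPM in the vehicle libraries and 7.40, 6.20, 7.05 and 7.11 CPM in the TP-472 libraries. It fell by 1.36 on the log2 scale (edgeR adjusted p = 0.00102), and by 1.52 without vehicle replicate 3. TRAF5, an adaptor of TNF receptors, and TAB1, a partner of the kinase TAK1, fell by 0.71 and 0.93 on the log2 scale (edgeR adjusted p = 0.00158 and 0.0117), and by 0.74 and 0.68 without vehicle replicate 3. TAB1 was under the fold limit once the GC trend of each library was removed (-0.56).

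The genes of this list that rose include the receptor TNFRSF12A and the ligase BIRC2. TNFRSF12A, also called Fn14, binds the cytokine TWEAK and feeds the non-canonical route, and it had 17.7, 19.7, 44.0 and 19.8 CPM in the vehicle libraries and from 64.1 to 82.5 CPM in the TP-472 libraries. Vehicle replicate 3 was above the other vehicle libraries and still below all treated ones. The log2 fold change was 1.54 (SE 0.29, edgeR adjusted p = 0.00415), and 1.94 without that library. BIRC2, which encodes cIAP1, had 78.1, 91.6, 39.9 and 89.6 CPM in the vehicle libraries and 187, 187, 191 and 208 CPM in the TP-472 libraries. The treated libraries were alike and all above the vehicle libraries, of which vehicle replicate 3 was the lowest. BIRC2 rose by 1.37 on the log2 scale (SE 0.23, edgeR adjusted p = 0.00284), and by 1.16 without vehicle replicate 3.

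A further 18 inhibitors of the pathway, outside the members, had 17 tested genes, of which 2 were called higher and 1 lower, with a median log2 fold change of 0.06, which turned to -0.04 without vehicle replicate 3. These are 11.8% and 5.88% of the list, and 12.0% and 14.9% of all genes tested were called in these directions. NFKBIB, which encodes IkB-beta, had 8.17, 9.97, 15.4 and 10.0 CPM in the vehicle libraries and 16.7, 18.7, 18.9 and 16.0 CPM in the TP-472 libraries. The groups were separate, with vehicle replicate 3 just under the treated range. NFKBIB rose by 0.69 on the log2 scale (SE 0.19, edgeR adjusted p = 0.0230), and by 0.90 without vehicle replicate 3. ZC3H12A, a ribonuclease that degrades cytokine transcripts, rose by 0.87 (SE 0.29, edgeR adjusted p = 0.0445), or by 1.27 without vehicle replicate 3, which lay inside the treated range. Its call was lost without any one of the other 7 libraries, with adjusted p from 0.0612 to 0.109 in edgeR, and also with a filter of 5 CPM (0.0582) and with total-count scaling (0.0710). The call of NFKBIB was lost without TP-472 replicate 2 or 3 or vehicle replicate 1 or 4, with adjusted p from 0.0504 to 0.0649. PDLIM2, an adaptor that promotes the breakdown of nuclear RELA, fell by 0.73 (edgeR adjusted p = 0.0116), and by 0.59 without vehicle replicate 3. It was under the fold limit with the GC trend removed (-0.50) and with quality weights in limma-voom (-0.58). The deubiquitinases CYLD and OTULIN were not called, with log2 fold changes of 0.06 and 0.20, or -0.14 and 0.08 without vehicle replicate 3.

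Of 40 genes that NF-kB is known to transcribe, 23 passed the filter, of which 12 were called higher and 1 lower, where 12.0% and 14.9% of all genes tested were called in these directions. The median log2 fold change was 0.74. Of the 12, CCL20, IL6 and TNFRSF9 were above 1 CPM in the TP-472 group alone and could not have passed the filter without being higher there, so the count and the median describe the tested genes and not the whole list. The CXC chemokines that attract neutrophils were among them. CXCL2 had 4.10, 4.91, 3.94 and 5.28 CPM in the vehicle libraries and 26.8, 26.9, 27.8 and 29.6 CPM in the TP-472 libraries. No vehicle library came near the treated ones. It rose by 2.61 on the log2 scale (SE 0.14, edgeR adjusted p = 1.74e-05). CXCL1 rose by 2.20 and CXCL3 by 1.79 (edgeR adjusted p = 3.97e-05 and 1.58e-04), and CXCL8 by 3.58 (adjusted p = 9.86e-05). Without vehicle replicate 3, CXCL2, CXCL1, CXCL3 and CXCL8 rose by 2.54, 2.08, 1.69 and 3.35. CXCL1, CXCL2 and CXCL3 are close paralogs, and the split of reads between them is uncertain.

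IER3, an early response gene that acts on cell survival, had 6.62, 10.6, 7.82 and 11.6 CPM in the vehicle libraries and 58.3, 62.7, 58.5 and 49.5 CPM in the TP-472 libraries. The treated libraries were all several times the highest vehicle library. IER3 rose by 2.64 on the log2 scale (SE 0.19, edgeR adjusted p = 5.95e-05), and by 2.57 without vehicle replicate 3. The gene called lower was IL32, which encodes a proinflammatory cytokine, with 8.62, 6.96, 17.3 and 8.12 CPM in the vehicle libraries and 5.95, 4.26, 4.94 and 3.36 CPM in the TP-472 libraries. Vehicle replicate 3 was the highest library, and the groups were separate without it too. IL32 fell by 1.15 (SE 0.31, edgeR adjusted p = 0.0204), and by 0.77 without vehicle replicate 3. Its call was lost without TP-472 replicate 2, 3 or 4 (edgeR adjusted p = 0.0606, 0.0512 and 0.0588). Among the survival genes of the list that did not pass, CFLAR, which blocks caspase-8, had a log2 fold change of -0.06 and BCL2L1, which encodes BCL-XL, of -0.29 (edgeR adjusted p = 0.751 and 0.161), or 0.05 and -0.11 without vehicle replicate 3.

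**Figure D5:**
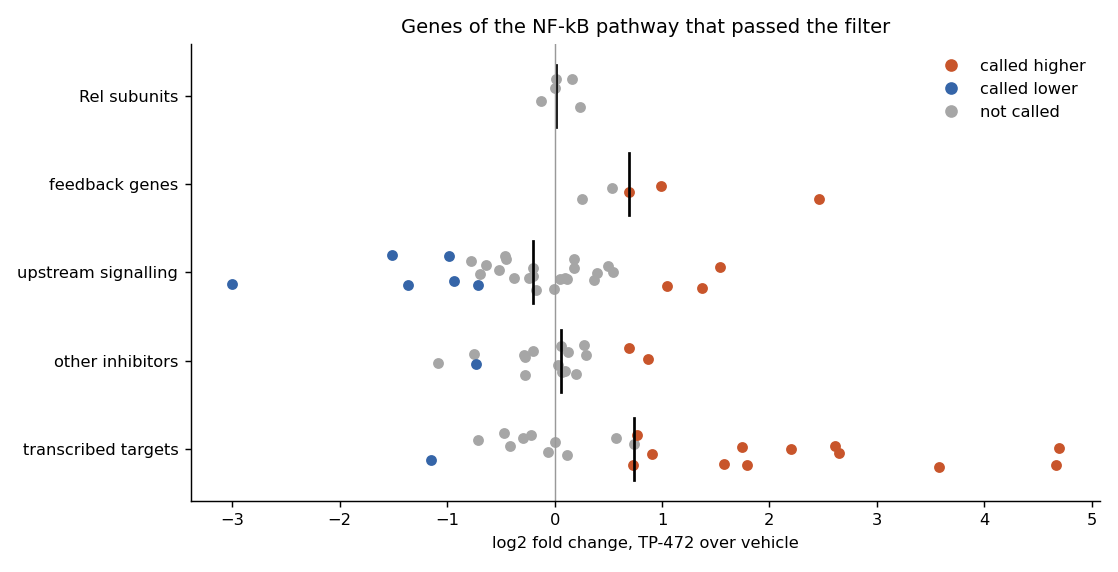
Log2 fold change of TP-472 over vehicle (horizontal axis) for every tested gene of the 5 lists (1 row each), with genes called higher in red, called lower in blue and the rest in gray, and a vertical bar at the median of each list. The medians are 0.01 for the subunits, 0.69 for the feedback genes, -0.20 for upstream signalling, 0.06 for the other inhibitors and 0.74 for the transcribed targets.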

How the data were processed

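RNA of SK-UT-1 cells under TP-472 or vehicle was sequenced in 4 libraries per group. The values deposited by the authors are estimated counts, made with salmon 1.4.0 against GRCh38 and summed by gene, neither normalized nor filtered; whether salmon used strand is not given in the sources used here, and the labels and the paper's methods name different library kits. Here the estimated counts were rounded, scaled by TMM and tested over all genes above 1 CPM in at least 4 libraries with the quasi-likelihood test of edgeR 4.0.16 in R 4.3.3, with treatment as the only term, since the labels give no batch. Calls needed a change beyond 1.5-fold and adjusted p under 0.05. Ratios were compared with exact permutation tests in Python 3.11.15, with the Benjamini-Hochberg adjustment from scipy 1.17.1. GC content and lengths came from GENCODE on GRCh38 (GC for 99.3% of genes tested), joined by identifier without version.

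Members and lists were chosen with earlier results of these data known. Named were all members and, from each pathway list, up to 5 called genes per direction with the largest change and a mean of at least 5 CPM, plus markers, BIRC2, and the 5 genes most like NFKBIA and TNFAIP3, of which 1 is not reported here; CYLD, OTULIN, CFLAR and BCL2L1 were named after their values were seen. Protein sequences were not used here. Library totals of at least 32574716 counts leave the spread between libraries as the main error for genes well above the filter. No library copied another (lowest mean chi-square between libraries 12.8, where reads drawn again from the same library would give near 1 and an exact copy less). The results were recomputed with DESeq2 1.42.0, limma-voom from limma 3.58.1 with and without quality weights, other scalings and filters, unrounded counts, no fold limit, removal of each library's GC trend, the replicate number as a block, and each library left out. The calculations were tested on simulated data that held no GC trend and no outlying library. That test therefore does not cover the departure of vehicle replicate 3.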

Additional observations from a re-analysis of the deposited data

Results flagged for a closer look

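Of 66 groups of 4 libraries examined for a library far from the other 3 of its group, 14 held one, and 10 of the 14 were vehicle replicate 3. For a single group chance gives about 1 in 20. The groups share the same 8 libraries and some genes, so they are not independent, and their number was not tested against that share. The measure was the gap of the extreme library to its nearest neighbor as a share of the group's range, against Dixon's limit for 4 values.

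Among the members, vehicle replicate 3 was set apart in NFKB2 (63.1 CPM), RELB (28.5 CPM) and NFKBIE (14.7 CPM), all above the rest of the group. TP-472 replicate 4 was set apart in NFKBIZ (21.2 CPM) and BIRC3 (111 CPM), both above the other treated libraries, and in the ratio of REL to RELA (1.18). The ratio of NFKB2 to NFKB1 was 1.38 in vehicle replicate 3, against 0.579 to 0.643 in the other vehicle libraries.

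Among the genes around the members, vehicle replicate 3 was the high library in TNFRSF1A (116 CPM), TNFRSF12A (44.0 CPM), TAB1 (38.4 CPM), ZC3H12A (7.01 CPM) and IL32 (17.3 CPM), and the low library in TLR3 (11.8 CPM). In TRAF5 vehicle replicate 1 was high, at 43.7 CPM. The part of GC content in these values was not tested.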

How the results depend on the processing

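BIRC3 and TNFAIP3 were called higher under every alternative run, with log2 fold changes of 2.14 to 2.59 and 0.86 to 1.39. NFKBIE kept its direction in all of them (0.62 to 1.06) and lost its call only without the 3 libraries named above. With each library's GC trend removed, 5 members were called higher, RELB (0.69, adjusted p = 1.71e-04) and NFKBIA (0.61, adjusted p = 0.00287) being added, and a log2 fold change of RELA of 0.15 and of REL of -0.19 changed sign. With quality weights in limma-voom RELA changed sign to 0.26 (adjusted p = 0.00288). NFKB2 was 0.48 with the GC trend removed, with and without the replicate block (adjusted p = 0.0104 and 0.00127), and 0.46 with quality weights (adjusted p = 3.12e-05), but -0.0072 with RLE factors, -0.030 with a filter of 5 CPM and -0.050 with total-count scaling, and REL, near 0 with all 8 libraries, was -0.0058 with that filter and -0.018 with that scaling. The cause of these changes was not tested.

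The replicate numbers did not pair the libraries (correlations of the deviations of same-numbered libraries -0.06, 0.12, -0.17 and -0.18). With the replicate block 3055 genes were called and 3 members were called higher, and the largest adjusted p among NFKBIA, NFKBIE, TNFAIP3 and BIRC3 was 0.0369. With the block and the GC trend removed, 3664 genes were called in either direction and 5 members were called higher. No further inhibitor was called lower there (0 genes), and RELA was at 0.15 and REL at -0.16.

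Over the alternatives other than left-out libraries the total called was 2672 to 5598, the extremes being the filter of 5 CPM and DESeq2. With each library left out it was 2744 to 4322. DESeq2 was run on all genes without the filter of 1 CPM, so its method and filter cannot be told apart. Without a filter edgeR called 5090 genes. Left-out libraries gave 2 to 3 members called higher, 0 to 2 further inhibitors higher and 1 to 2 lower, 10 to 13 targets higher and 0 to 2 lower, and log2 fold changes of -0.14 to 0.40 for NFKB2, -0.25 to 0.18 for RELA and -0.11 to 0.12 for REL. Upstream genes called higher numbered 5 without the fold limit. Further inhibitors called higher numbered 1 with the filter of 5 CPM and with total-count scaling, and those called lower numbered 2 with DESeq2 and without the fold limit, and 0 with the GC trend removed and with quality weights. Targets called higher numbered 19 with DESeq2 and 17 with edgeR without a filter, and those called lower 3 with DESeq2 and 2 with edgeR without a filter. No ratio passed after adjustment with all 8 libraries, and 4 against 3 libraries cannot give a p-value under 0.0286. With each library left out the log2 difference was 1.04 to 1.10 for BIRC3 to BIRC2, 0.22 to 0.35 for RELB to RELA and 0.39 to 0.78 for NFKBIA to RELA, and it changed sign for NFKB2 to NFKB1 (-0.25 to 0.16) and REL to RELA (-0.17 to 0.18).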

Other observations

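Several targets and receptors of the pathway with few counts were not named by the rule above and are given after their values were seen. CCL20, a chemokine for lymphocytes and dendritic cells, had 1, 1, 0 and 4 counts in the vehicle libraries and 46, 42, 44 and 41 counts in the TP-472 libraries. IL6, the proinflammatory cytokine, had 1, 2, 0 and 7 counts in the vehicle libraries and 94, 46, 57 and 90 counts in the TP-472 libraries. Both passed the filter only through the TP-472 group, so no test of them is given, and the vehicle groups are too near 0 for a precise fold.

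Below the filter and therefore not tested, PTGS2, which encodes cyclooxygenase-2, had 0 counts in every vehicle library and 5, 4, 5 and 10 counts in the TP-472 libraries, and TLR2, a receptor for bacterial lipoproteins, had 4, 9, 7 and 3 counts against 25, 18, 24 and 23. TNF itself had at most 2 counts in any library. LTBR, the lymphotoxin beta receptor, had 1.36, 1.06, 3.47 and 1.15 CPM in the vehicle libraries and 0.207, 0.366, 0.139 and 0.159 CPM in the TP-472 libraries, and since it passed the filter only through the vehicle group no test of it is given. TNFRSF1B, the other TNF receptor, fell from 5.46, 5.20, 9.47 and 6.21 CPM to 2.07, 2.06, 2.91 and 2.19 CPM (edgeR adjusted p = 0.00175, and 1.19e-04 without vehicle replicate 3).

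The likeness of other genes to NFKBIA and TNFAIP3 was measured as the root mean square difference over the 8 libraries between log2 CPM centered on each gene's own mean. The genes nearest to NFKBIA were C11orf24 (0.0447), NXT1 (0.0486), BCL7B (0.0656), HSCB (0.0679) and CCDC51 (0.0701). Among the nearest to TNFAIP3 were GPRC5A (0.0973), EPHA2 (0.141), WDR4 (0.157) and STC2 (0.161). The 8 libraries fall into 2 groups, and any gene with a like change between the groups scores well by this measure.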
